A study of Mus musculus with 12 samples.

Results

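The genes described here end at either of 2 neighbouring places in the same last exon. They were taken from the splicing table as the genes with exactly 2 tandem-end nodes on one strand, a tandem-end node being a stretch of exon between one annotated transcript end and the next. There were 3086 such genes of 4770 genes with a tandem-end node, and they held 6172 of the 12351 tandem-end nodes. The node nearer to the coding sequence is called proximal and the farther one distal, by genome position and strand. The measured quantity is Psi (percent spliced in, given as a fraction), the relative use of a node. It has 1 value for Ag and 1 for Ag+Costim, and sums to 1 over the 2 nodes in nearly all of these genes.

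The cells were CD8+ T cells with the OT-I transgenic T cell receptor, which all groups carried, so every group holds cells of a single antigen specificity. They were transferred into C57BL/6J recipients that received the OT-I peptide antigen with control IgG (Ag, 5 libraries) or the same antigen with agonist antibodies to CD134 (OX40) and CD137 (4-1BB) (Ag+Costim, 5 libraries). By the methods, the transferred CD8+ cells were sorted from spleen and lymph nodes by a donor marker and the chains of the transgenic receptor. The time was 4 days by the labels, and the methods give a slightly earlier one. Naive cells (2 libraries) were purified from OT-I mice without transfer. The OT-I donors were Rag-deficient, so that they have no other T cell receptors.

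An mRNA is released from RNA polymerase by cleavage downstream of a polyadenylation signal, most often the hexamer AATAAA or its common variant ATTAAA, and a poly(A) tail is added at the cut. Where a last exon holds several signals, cleavage at the first gives a short 3′UTR and cleavage farther on a long one with the same protein. The stretch between the ends can hold binding sites for microRNAs and RNA-binding proteins. Proliferating lymphocytes are known for using proximal sites more often than resting ones. In bulk RNA, a shift in cleavage, unequal decay of the short and long forms, and a changed mix of cells cannot be told apart.

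Of the 3086 genes, 2993 were matched to one gene of GENCODE vM21 (mm10), of which 2904 were protein coding. In all 3086 pairs the nodes touched. In 3071 pairs their Psi summed to 1 within 0.01 in both groups, so the distal Psi alone describes the pair. A stop codon lay in the proximal node of 2724 of the 2904 protein coding genes and in the distal node of 61. The distal node is therefore, in most of these genes, an extension of the 3′UTR. The extension had a median length of 216 bases, with quartiles of 6 and 1135 bases and a range of 1 to 37585 bases. In 990 genes it was shorter than 10 bases, and in 1741 it was 100 bases or longer. Another annotated gene lay on the same strand at 248 of the pairs, where reads could be split between genes.

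The hexamers differed between the ends. In the last 50 bases before the end, AATAAA was found at 1252 of 2859 proximal ends (43.8%) and at 1856 of 2880 distal ends (64.4%), against 49.7% of 11612 ends of all tandem-end nodes. Where AATAAA was not found, ATTAAA was found at a further 300 proximal ends (10.5%) and 436 distal ends (15.1%), against 12.3% of all ends. With an extension of 100 bases or longer, neither hexamer was found at 67.4% of 1607 proximal ends and at 25.4% of 1617 distal ends. The search used the transcript strand, since a signal is read from the RNA.

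Stretches of 30 bases are shown for 7 genes, as letters of the RNA strand from the GENCODE vM21 transcripts (mm10), with the hexamer in capitals. Each stretch ends at the node's end or at most 20 bases before it. The first genes, Prdm1 and Vdac1, have no hexamer at the proximal end and are also genes whose libraries separated the groups. The proximal end of Vdac1 is the last base of its stop codon, so that its annotated short form has no 3′UTR.
Prdm1 proximal (chr10:44438293-44438322, minus strand): acccagctgagcgtgtgtgcttccaaatgg
Prdm1 distal (chr10:44437178-44437207, minus strand): aaatgtaaATTAAAatataaatgttcatgc
Vdac1 proximal (chr11:52388494-52388523, plus strand): cttggcctaggactggaatttcaagcataa
Vdac1 distal (chr11:52389368-52389397, plus strand): ataaaacttgAATAAAatactgaaacctca

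The next 3 genes carry a hexamer at both ends. They are shown because the distal Psi in Ag was low in Dut (0.00552) and high in Eomes (0.838) and Nlrc3 (0.982).
Dut proximal (chr2:125257703-125257732, plus strand): tttaatccAATAAAgttgtcttttagcaga
Dut distal (chr2:125258578-125258607, plus strand): aggcataaATTAAAattttagaggttactt
Eomes proximal (chr9:118485325-118485354, plus strand): ccggtgctATTAAAtgaatttcaaagacaa
Eomes distal (chr9:118486083-118486112, plus strand): tttAATAAAtgtggttcaataagggaccag
Nlrc3 proximal (chr16:3945610-3945639, minus strand): tgtactttaaataaataAATAAAtaagtct
Nlrc3 distal (chr16:3945007-3945036, minus strand): cagcctggagattgttttaaATTAAAcagg

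The last pair stands for the ends that lie a few bases apart. In Gnb1 they are 2 bases apart and in Mms22l 4 bases apart, and the stretch shown holds the same hexamer for both ends of the gene.
Gnb1 (chr4:155559238-155559267, plus strand): taagatgtAATAAAgcagtttgacatgagg
Mms22l (chr4:24602917-24602946, plus strand): tttttaattaaATTAAAgattctttgaaac

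To ask whether costimulation was accompanied by another choice of 3′ end, the distal Psi of Ag+Costim was set against that of Ag. The 2495 genes with a mean gene count of at least 100 over these 10 libraries were used, and the other 591 were left out. The distal Psi was lower in Ag+Costim by 0.1 or more in 421 genes (16.9%) and higher in 285 (11.4%). Over all 3871 genes with 2 or more nodes and this depth, the most distal node was lower in 16.9% and higher in 10.3%. The 2495 genes are most of these 3871, so near values follow in part from the overlap. In the 1376 genes with more than 2 nodes, 232 were lower and 113 higher. Among the 2495 genes, the median difference was -0.000271, with quartiles of -0.0477 and 0.0241, and 1789 genes differed by less than 0.1. Since each group has a single Psi, these differences carry no replicate error and were not tested.

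The excess of lower values was larger where the extension was long. Among 1404 genes with an extension of 100 bases or longer, 206 were lower (14.7%) and 115 higher (8.19%), so that 64.2% of the genes past the size were lower. The background among all 2037 genes whose most distal node was this long was 15.7% lower and 7.41% higher, and among the 633 of them with more than 2 nodes 17.9% and 5.69%. At 1000 bases or longer, 118 of 696 genes were lower and 63 higher. In genes whose ends lay 1 to 9 bases apart, 154 of 802 were lower and 129 higher, although both ends share nearly all of their sequence there. The rest of the description therefore keeps to extensions of 100 bases or longer, unless stated, a choice made after the values were seen. Of these genes, 644 had a distal Psi above 0.5 in Ag and 622 in Ag+Costim. The main end moved from distal to proximal in 59 genes, of which 45 differed by 0.1 or more, and from proximal to distal in 37, of which 29 did.

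**Figure D1:**
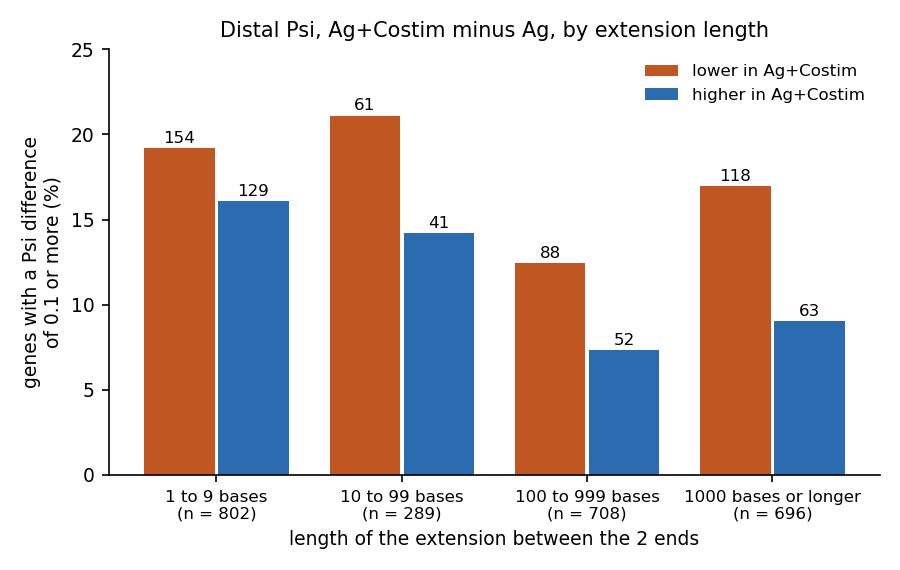
Share of two-node genes (vertical axis, percent) whose distal Psi was lower (orange) or higher (blue) in Ag+Costim than in Ag by 0.1 or more, by the length of the extension in bases (horizontal axis), with the number of genes above each bar. Lower values outnumber higher ones in all 4 classes, from 154 against 129 genes at 1 to 9 bases to 118 against 63 at 1000 bases or longer.

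**Figure D2:**
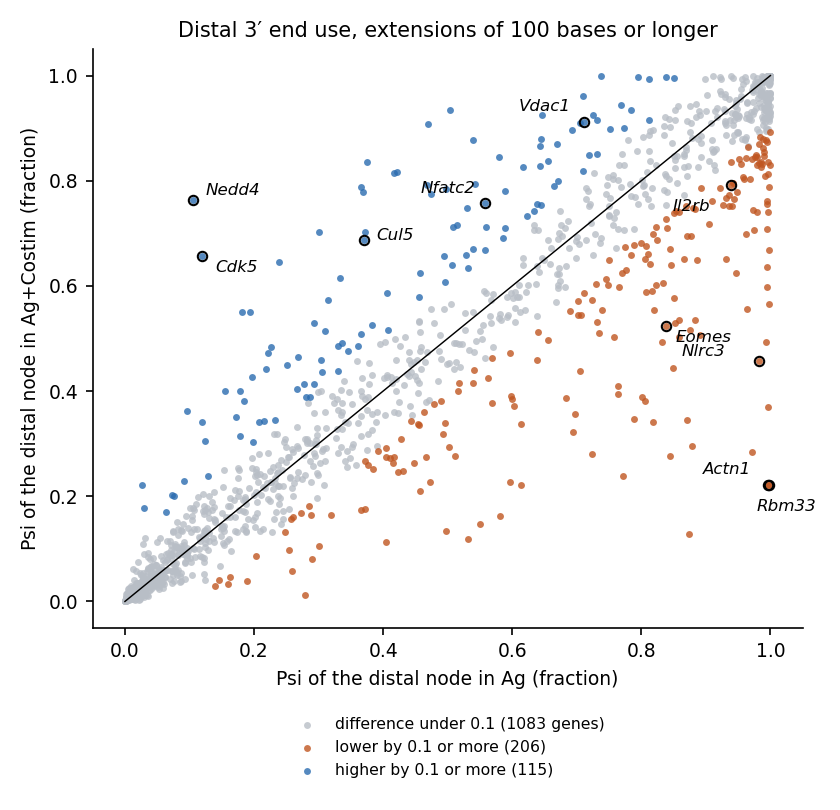
Distal Psi in Ag (horizontal axis) and Ag+Costim (vertical axis), each a fraction with 1 value per group, for the 1404 genes with an extension of 100 bases or longer and a mean gene count of at least 100, where the line marks equal values. The 206 orange genes lie at least 0.1 below equality and the 115 blue genes at least 0.1 above it, and circles mark named genes.

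The level of distal use went with the hexamer at the proximal end. Of the 1404 genes, both windows could be read in 1266. In the 447 genes with AATAAA or ATTAAA at the proximal end, the median distal Psi was 0.0783 in Ag and 0.0869 in Ag+Costim. In the 819 genes with neither, it was 0.638 in Ag and 0.589 in Ag+Costim. The distal hexamer went with a smaller difference. Where the proximal end had neither, the median in Ag was 0.701 with AATAAA at the distal end (525 genes), 0.622 with ATTAAA (116 genes) and 0.423 with neither (178 genes). Where the proximal end had AATAAA, it was 0.123 with a distal AATAAA (171 genes) and 0.0291 with neither at the distal end (103 genes). These are descriptions across genes, which are not replicates.

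Genes without a proximal hexamer also held most of the differences between the groups. Of those 819 genes, 143 were lower and 82 higher by 0.1 or more (27.5% in all), against 41 lower and 25 higher of the 447 genes with a proximal hexamer (14.8%). Genes of like starting Psi were not compared. Some of these proximal ends are ends of incomplete 3′UTRs: 130 of 860 such ends were the last base of a stop codon, against 3 of 466 ends with a hexamer. Without the 153 genes whose proximal end is a stop codon, 177 were lower and 101 higher.

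**Figure D3:**
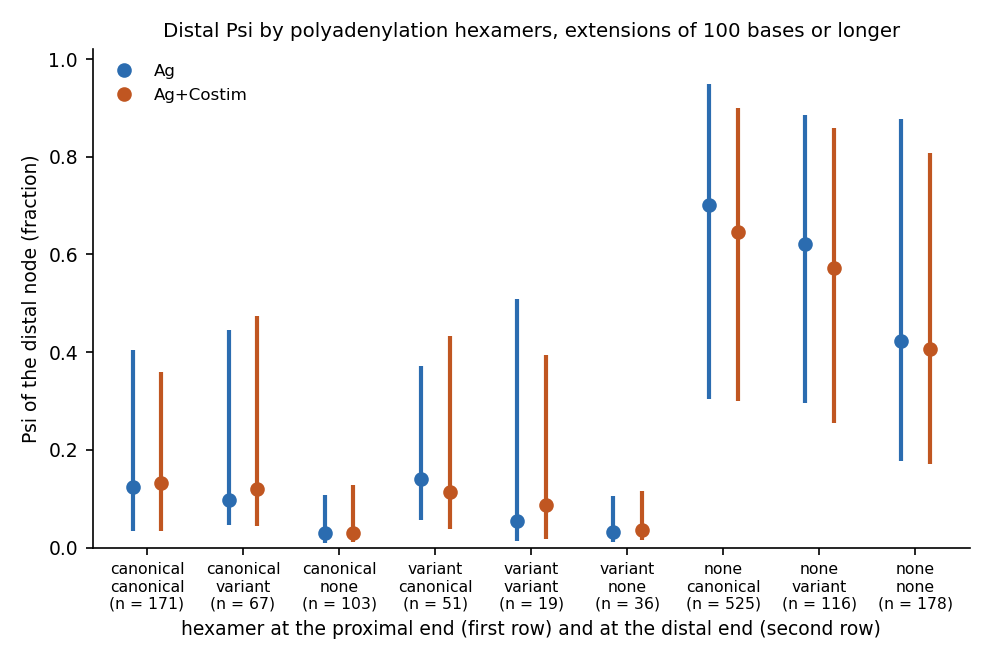
Median distal Psi (points, fraction) with its quartiles (bars) in Ag (blue) and Ag+Costim (orange), for genes with an extension of 100 bases or longer grouped by the hexamer at the proximal (first row) and distal (second row) end, where canonical is AATAAA, variant ATTAAA and none neither. The 3 groups without a proximal hexamer have medians of 0.423 to 0.701 in Ag, and the other 6 lie at 0.140 or less.

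The largest differences were taken by a rule without regard to extension length. The lowest 3 among the genes not called by the transcript test described below were Rbm33, a protein with an RNA recognition motif, from a distal Psi of 0.998 in Ag to 0.221 in Ag+Costim, Actn1, an actin cross-linking protein, from 0.996 to 0.222, and Nphp4, a protein of cilia, from 0.874 to 0.128. The highest 3 were Mms22l, a replication-repair protein, from 0.0178 to 0.677, Slc38a7, an amino acid transporter, from 0.0379 to 0.799, and Alas2, the erythroid enzyme that opens haem synthesis, from 0.0387 to 0.905. All 3 of the lowest had extensions over 100 bases, and the proximal end of Actn1 is a stop codon. The extensions of the highest 3 were 4, 4 and 16 bases. The transcript counts per library, described below, did not follow the Psi of these 3 genes. Mms22l had 0 proximal counts in all 5 Ag libraries, that is a distal share of 1.0, and a distal share of 0.974 to 1.0 in Ag+Costim. Slc38a7 was counted almost wholly at one end in each library. Its distal share was 1.0 in Ag 2, 3 and 4 and in Ag+Costim 2 and 3, and at most 0.0126 in the other Ag and Ag+Costim libraries. Alas2 had distal shares of 0.860 to 0.999 in Ag and of 0.992 to 1.0 in the 4 Ag+Costim libraries with a count. Alas2 belongs to the red cell lineage. The summed level of 5 erythroid marker genes lay between 588 and 6712 CPM (counts scaled to a common library total) in Ag, between 14.0 and 210 with costimulation and between 168 and 2310 in Naive, and the mean count of Alas2 was 594.4 in Ag and 59.0 in Ag+Costim. The part of these markers in the Alas2 value was not tested.

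With at least 500 mean counts in both groups and an extension of 100 bases or longer, a limit chosen after the values were seen, the lowest included the following genes. Xpr1, a phosphate exporter, went from a distal Psi of 0.993 in Ag to 0.493 in Ag+Costim, and Sel1l, an adaptor of endoplasmic reticulum degradation, from 0.771 to 0.239. Apc, the scaffold that holds beta-catenin in check, had 0.997 and 0.370. Anp32a, a histone-binding phosphoprotein, had 0.870 and 0.345. Among the highest, Ppp1cb, a catalytic subunit of protein phosphatase 1, had 0.366 in Ag and 0.788 in Ag+Costim. Zfp266, a zinc finger protein, had 0.737 and 0.999, and Suds3, a subunit of the Sin3 histone deacetylase complex, 0.0961 and 0.363. Cdk5, a kinase best known from neurons, had 0.120 and 0.656, with a proximal end at its stop codon.

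The genes were then read by function, over lists that hold only two-node genes of the depth and extension given above. Several of the Psi differences named were not seen in the transcript counts per library, described below. The median distal Psi difference over all 1404 genes was -0.000878, and 22.9% of them differed by 0.1 or more (14.7% lower and 8.19% higher). Of 13 genes of cytokine and costimulatory receptors and their signalling, 5 were lower in Ag+Costim and 0 higher, with a list median of -0.0279. Il2rb, a receptor chain for interleukin-2 and interleukin-15, had a distal Psi of 0.939 in Ag and 0.792 in Ag+Costim. Ifnar2, a chain of the type I interferon receptor, had 0.489 and 0.381, and another gene lies on its strand. Il6ra, the interleukin-6 receptor chain, had 0.159 and 0.0333. Within NF-kB signalling, Ikbkb, the kinase that releases NF-kB, had 0.979 and 0.829, and Nfkb1, which encodes a subunit of it, 0.844 and 0.670.

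Of 5 genes of T cell receptor signalling, 0 were lower and 2 higher. Nfatc2, a calcium-responsive transcription factor, had a distal Psi of 0.558 in Ag and 0.757 in Ag+Costim, and the adaptor Grb2 had 0.293 and 0.529. The list median was 0.0796. Of 17 transcription factors of T cells, 3 were lower and 2 higher, with a median of -0.0268. Eomes, a factor of effector and memory CD8+ cells, had 0.838 and 0.524, Sp1, a general activator, 0.998 and 0.565, and Prdm1 (Blimp-1), a factor of terminal effector cells, 0.854 and 0.742. Irf8 had 0.531 and 0.634, and Mxd4, an antagonist of Myc, 0.281 and 0.388. Another gene lies on the strand of Irf8.

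Proteins that act on RNA were read next. Of 21 RNA-binding and splicing proteins, 6 were lower and 1 higher, with a median of -0.00238, against 14.7% lower and 8.19% higher of all 1404 genes. Besides Rbm33 and Rbm18, Rc3h1 (Roquin-1), which drives decay of immune mRNAs, had a distal Psi of 0.724 in Ag and 0.280 in Ag+Costim. Dazap1, a splicing factor, had 0.740 and 0.554, and the RNA helicases Dhx33 and Ddx19b 0.689 and 0.552, and 0.563 and 0.426. Ddx60, an interferon-induced helicase, was the higher one with 0.172 and 0.351. Of 5 cleavage and polyadenylation factors, 2 were lower and 1 higher. Cstf2, which binds the RNA downstream of the cut, had 0.776 and 0.630, Scaf4, which limits early termination, 0.705 and 0.438, and Ppp1cb is listed with the phosphatases of the cleavage complex.

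In the other lists the counts were as follows. All 5 of the 27 vesicle traffic genes past the size were lower, among them Sec24a (0.789 in Ag and 0.347 in Ag+Costim) and Sec23a (0.724 and 0.573) of the COPII coat and Stx17 (0.980 and 0.740), a syntaxin of autophagosomes. Of 27 small GTPases and their regulators, 1 was lower, Arhgap35 (0.890 and 0.507), and 4 were higher, among them Nras (0.226 and 0.484). Of 39 ubiquitin and SUMO pathway genes, 4 were lower and 5 higher. Nedd4, a ubiquitin ligase, had the largest difference among them with 0.105 and 0.764. Of 32 cell cycle and replication genes, 3 were lower and 1 higher. They were Orc2 (0.806 and 0.380) of the origin recognition complex, Cdc27 (0.833 and 0.605) of the anaphase-promoting complex, Ccnt2, a cyclin of transcription elongation, and Cdk5. The lists of 23 chromatin regulators, 17 translation genes and 28 mitochondrial genes had 2, 1 and 3 genes past the size. The translation gene was Rps6ka3, a kinase caught by its name, and the chromatin genes were Brd2 (0.876 and 0.517) and Hdac4 (0.178 and 0.401).

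The gene's own level was compared in the same cells. With edgeR's quasi-likelihood test and Benjamini-Hochberg adjusted p below 0.05, 1009 of 2953 two-node genes had higher counts in Ag+Costim than in Ag and 877 lower, where over all 18817 genes 26.6% were higher and 26.5% lower. Among the 206 genes with a lower distal Psi, 103 rose in count and 36 fell, with a median log2 fold change of 0.40. Among the 115 with a higher distal Psi, 34 rose and 37 fell, with a median of -0.07. Among the 1083 genes in between, 409 rose and 362 fell, with a median of 0.05. Upper-quartile scaling moved the median of all genes from -0.05 to -0.24 and turned the split of the two-node genes to 820 higher and 1115 lower. The 3 classes then had 90 and 55, 22 and 48, and 329 and 461 genes higher and lower. Genes lower in distal Psi had a median mean count of 991 against 1841 in those in between.

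Several genes with a lower distal Psi rose strongly in count by edgeR's quasi-likelihood test. In Il2rb the level was 338 ± 77.3 CPM (SD, n = 5) in the group with antigen alone and 1325 ± 94.1 CPM (SD, n = 5) with costimulation (log2 fold change 1.97 ± 0.14 SE, n = 5 and 5, adjusted p = 9.62e-08). Dazap1 rose by 2.21 ± 0.11 (SE) on the log2 scale, Actn1 by 2.101 ± 0.26, Brd2 by 1.87 ± 0.07, Eomes by 1.69 ± 0.16 and Cstf2 by 1.30 ± 0.12. Nedd4, with a higher distal Psi, rose by 3.52 ± 0.17. The largest adjusted p among these 7 genes was 1.19e-05 by edgeR, and none lost its call under the alternatives tried.

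Psi has no replicates here, so 3′ end use was also measured per library, from the transcript counts. The annotated transcripts ending in the proximal node were summed and set against those ending in the distal node, which gives a distal share per library. Of the two-node genes 2887 had a transcript at both ends and 2156 had enough counts to be tested. The share depends on the whole transcript model, since the transcripts of the 2 ends can differ elsewhere, and in 1052 of the 2156 genes (48.8%) at least 1 library had 0 counts at one end. The median of the within-group SD over genes was 0.0651 in Ag, 0.0615 in Ag+Costim and 0.0280 in Naive, and in 615 genes the SD in Ag or Ag+Costim was over 0.2. The median distal share of a library lay between 0.841 and 0.899 in Ag, between 0.830 and 0.851 with costimulation and between 0.846 and 0.865 in Naive, and these ranges overlapped.

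With edgeR's quasi-likelihood test on the log2 ratio of distal to proximal counts, 6 two-node genes were lower and 6 higher in Ag+Costim than in Ag, against 0.341% and 0.313% of 3517 genes tested. At an unadjusted p below 0.05 there were 230 (10.7%). For Ag against Naive 8 were lower and 5 higher (background 0.426% and 0.256%), and for Ag+Costim against Naive 4 and 2 (0.199% and 0.0853%). DESeq2 called 145 lower and 124 higher for Ag+Costim against Ag. In simulated counts with a log2 change of 3 in 193 genes, edgeR recovered 50 (25.9%), so changes of this size were often missed. The 3 comparisons share their libraries.

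Of the called genes, 4 met the rule for naming: Il12rb2, Tet3, Srsf2 and Pole. Il12rb2, the signalling chain of the interleukin-12 receptor, had a distal share of 0.177, 0.244, 0.249, 0.306 and 0.167 in the Ag libraries and of 0.00125, 0.00313, 0.00244, 0.00130 and 0.00107 in Ag+Costim. The Naive libraries had 0.202 and 0.00957. All Ag+Costim libraries lay below all Ag libraries (log2 ratio -7.32 ± 0.87 SE, edgeR adjusted p = 0.00209). The distal Psi of this gene was 0.852 and 0.839, so the measures differed, and its mean count was 87.6 in Ag and 2136.0 in Ag+Costim.

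Tet3, a dioxygenase that oxidises methylated cytosine, had a distal share of 0.921, 0.935, 0.919, 0.937 and 0.949 in Ag. In Ag+Costim it was 0.668, 0.598, 0.706, 0.688 and 0.825, below all Ag libraries, and in Naive 0.849 and 0.812. The log2 ratio was -2.56 ± 0.45 (SE), with an adjusted p of 0.0262 by edgeR. Leaving out any one of the Ag libraries, or Ag+Costim 1, 2, 3 or 4, moved that p to between 0.0525 and 0.0823. Its distal Psi was 0.998 and 0.996, and its proximal end is a stop codon.

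Srsf2, an SR protein that helps to choose exons, had a distal share of 0.957, 0.965, 0.962, 0.957 and 0.955 in Ag, and of 0.993, 0.994, 0.992, 0.991 and 0.994 in Ag+Costim. Naive had 0.969 and 0.962. The groups did not overlap (log2 ratio 2.56 ± 0.25 SE, edgeR adjusted p = 0.000687), and Ag+Costim also lay above Naive (2.32, adjusted p = 0.0165 by edgeR). Pole, the catalytic subunit of DNA polymerase epsilon, had 0.855, 0.916, 0.805, 0.919 and 0.984 in Ag. In Ag+Costim it had 0.997 or 0.998 in every library, and its Naive counts were 7 and 2 proximal and 323 and 315 distal. The log2 ratio was 5.08 ± 0.75 (SE, edgeR adjusted p = 0.00835) and the distal Psi 0.208 and 0.355, but its extension is 21 bases. With transcripts ending within 5 bases of the node's end, its adjusted p by edgeR was 0.146.

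The other called genes were Dut and Fasn, which make dUMP and fatty acids, Mast3, Rgs3, Morc2a, and, with extensions of 2 or 3 bases, Gnb1, Ints1 and Sema4a. Sema4a lost its call without any one of 8 libraries, Ag 2, 3 or 4 or any Ag+Costim library, with adjusted p of 0.0639 to 0.0867 by edgeR. With protein-coding transcripts alone its log2 ratio turned from positive to -5.66, with an adjusted p of 0.590 by edgeR.

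In several of these genes Psi and the share did not move together. Gnb1, a G protein subunit, had a mean distal share of 0.965 in Ag and 0.445 in Ag+Costim but a distal Psi of 0.214 and 0.449. Its Naive counts were 2658 and 2727 proximal and 2800 and 2257 distal, nearer to Ag+Costim than to Ag. Ints1, of the Integrator complex, had shares of 0.734 and 0.988 but a Psi of 0.545 and 0.158. Its Naive counts were 14 and 32 proximal and 2083 and 2305 distal, again nearer to Ag+Costim. Sema4a, a semaphorin, had shares of 0.365 and 0.927 and a Psi of 0.446 and 0.390. Its Naive counts, 4047 and 7574 proximal and 10342 and 7312 distal, gave shares between those means. Whether reads of 100 bases can tell ends 2 or 3 bases apart was not tested. Fasn had shares of 0.979 and 1.0 and a Psi of 0.0742 and 0.0495. Mast3 had a Psi of 0.998 and 0.999, Rgs3 of 0.674 and 0.742 and Morc2a of 0.414 and 0.416, with lower shares in Ag+Costim in all 3.

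In Rgs3, a regulator of G protein signalling, the proximal count was 0 in all 5 Ag and both Naive libraries. It was 352, 384, 508, 659 and 461 in Ag+Costim, where the distal share was 0.691 to 0.711. Against Ag the adjusted p was 0.00117 by edgeR, and against Naive 0.0160, but with protein-coding transcripts alone it was 0.246 against Ag. In Morc2a, a chromatin ATPase, the proximal count was 0 in every Ag library and 410 to 1019 in Ag+Costim, with 224 and 855 in Naive. Fasn had 7 to 25 proximal counts per Ag library and 1 to 4 in Ag+Costim, while its distal counts were 549 to 752 and 5460 to 15870. Each Naive library had 2 proximal counts of Fasn, with 4322 and 3404 distal ones, nearer to Ag+Costim. Dut had a distal share of 0.120 to 0.182 in Ag and 0.302 to 0.455 in Ag+Costim (log2 ratio 1.79 ± 0.31 SE, edgeR adjusted p = 0.0252), with a distal Psi of 0.00552 and 0.0140. The Naive counts of Dut were 1406 and 1735 proximal and 775 and 525 distal.

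For Dut the adjusted p by edgeR was 0.051 to 0.0756 without Ag 1, 3, 4 or 5, or Ag+Costim 2, 3, 4 or 5. For Mast3, a kinase, the distal share was 0.995 or above in every Ag library, 0.368 to 0.433 in 4 Ag+Costim libraries and 0.990 in Ag+Costim 5. The Naive libraries had 2375 and 2348 proximal and 2690 and 2601 distal counts, nearer to those 4 libraries than to Ag. The adjusted p of Mast3, 0.0252 by edgeR, became 0.0567 to 0.0970 without Ag 1, 3 or 4, or Ag+Costim 1, 2, 3 or 4.

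Apart from the test, the libraries of Ag+Costim lay wholly below those of Ag in 50 of the 2156 genes and wholly above in 48, against 2.47% and 2.59% of all 3517 genes. With an extension of 100 bases or longer and the depth above, 29 of 1066 genes lay below and 22 above. Psi and the share moved the same way in 595 of these 1066 genes (55.8%), and in 41 of the 51 with separated libraries. They come from the same reads and are not independent. Of 226 tested genes whose Psi differed by 0.1 or more, 125 had a share difference of the same sign. In 8 of them the libraries also separated in that direction, and in 2 in the opposite direction. Among all 1066 genes the libraries separated in 51, 41 of them in the direction of Psi. Separation was thus no more frequent among the 226 genes. The 8 were chosen after their values were seen.

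**Figure D4:**
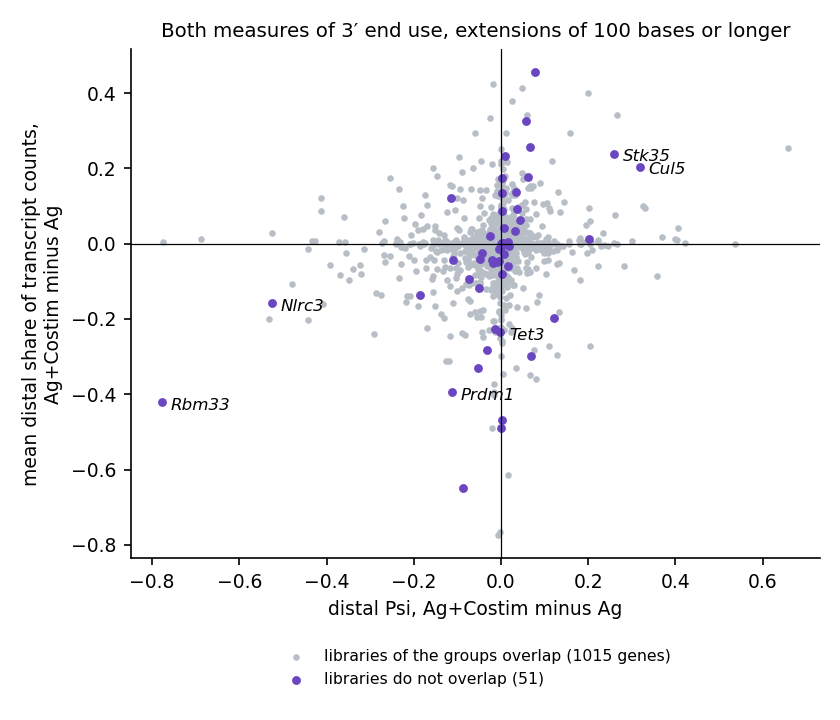
Difference in distal Psi (horizontal axis) against the difference in mean distal share of transcript counts (vertical axis), both Ag+Costim minus Ag as fractions, for 1066 genes with an extension of 100 bases or longer. The 51 purple genes have libraries that do not overlap between the groups, and 41 of them lie where both differences have the same sign.

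Of those 8 genes, 5 were lower in Ag+Costim. Rbm33 had a distal share of 1.0 in Ag 1, 2, 3 and 5, 0.804 in Ag 4, and 0.637, 0.338, 0.530, 0.559 and 0.632 in Ag+Costim, with 0.859 and 0.776 in Naive. Its proximal transcripts had 0 counts in 4 Ag libraries and 249 to 945 in Ag+Costim. The adjusted p was 0.0616 by edgeR, and 0.00188 without Ag 4. Without any other single Ag or Ag+Costim library it rose to between 0.0950 and 0.152 by edgeR. With the replicate numbers as a block it was 0.262. Prdm1 had 0 proximal counts in all Ag and Naive libraries and 276, 282, 146, 305 and 374 in Ag+Costim, where its distal share was 0.505, 0.651, 0.820, 0.473 and 0.578. Its adjusted p was 0.0589 by edgeR, 0.0492 without Naive 2 and 0.0466 with the Naive libraries left out of the fit. Without any one Ag or Ag+Costim library it rose to between 0.0662 and 0.159 by edgeR. With the replicate numbers as a block it was 0.443. The mean count of Prdm1 was 35.6 in Ag against 744.6 in Ag+Costim (log2 fold change 4.24 ± 0.27 SE, edgeR adjusted p = 5.97e-08). Its distal counts were 29 to 41 per Ag library, and the part of this depth in the missing short form was not tested.

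Nlrc3, a NOD-like receptor known to restrain T cells, had a distal share of 0.905, 0.889, 0.916, 0.878 and 0.821 in Ag. In Ag+Costim it had 0.693, 0.802, 0.712, 0.708 and 0.703, and in Naive 0.853 and 0.854. Ag+Costim was thus the group that stood apart (log2 ratio -1.55 ± 0.35 SE, edgeR adjusted p = 0.0841), and the distal Psi was 0.982 and 0.457. Senp1, a SUMO protease, had mean shares of 0.725 ± 0.0685 (SD, n = 5) in Ag and 0.587 ± 0.0621 (SD, n = 5) in Ag+Costim, and a distal Psi of 0.448 and 0.263. Rbm18 had 0.957 ± 0.00543 and 0.913 ± 0.0258 (SD, n = 5 each), and a distal Psi of 0.838 and 0.727. Neither passed the test, with adjusted p of 0.425 and 0.282 by edgeR.

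The other 3 were higher in Ag+Costim. Cul5, the scaffold of a ubiquitin ligase that acts on cytokine signalling, had a distal share of 0.209, 0.164, 0.193, 0.253 and 0.225 in Ag. It had 0.430, 0.347, 0.334, 0.561 and 0.396 in Ag+Costim, and 0.520 and 0.784 in Naive, so that Ag was lowest and Naive had the highest value (log2 ratio 1.42 ± 0.47 SE, Ag+Costim against Ag, edgeR adjusted p = 0.253). Its distal Psi was 0.370 and 0.688. Stk35, a kinase, had shares of 0.477, 0.242, 0.324, 0.396 and 0.462 in Ag, 0.635, 0.632, 0.506, 0.708 and 0.612 in Ag+Costim, and 0.373 and 0.605 in Naive. Its distal Psi was 0.314 and 0.573. Vdac1, the channel of the outer mitochondrial membrane, had 0.971 to 0.989 in Ag and 0.993 to 0.997 in Ag+Costim, with Psi of 0.711 and 0.912. Stk35 and Vdac1 had adjusted p of 0.445 and 0.0841 by edgeR. DESeq2 called all 8 of these genes, and edgeR none.

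**Figure D5:**
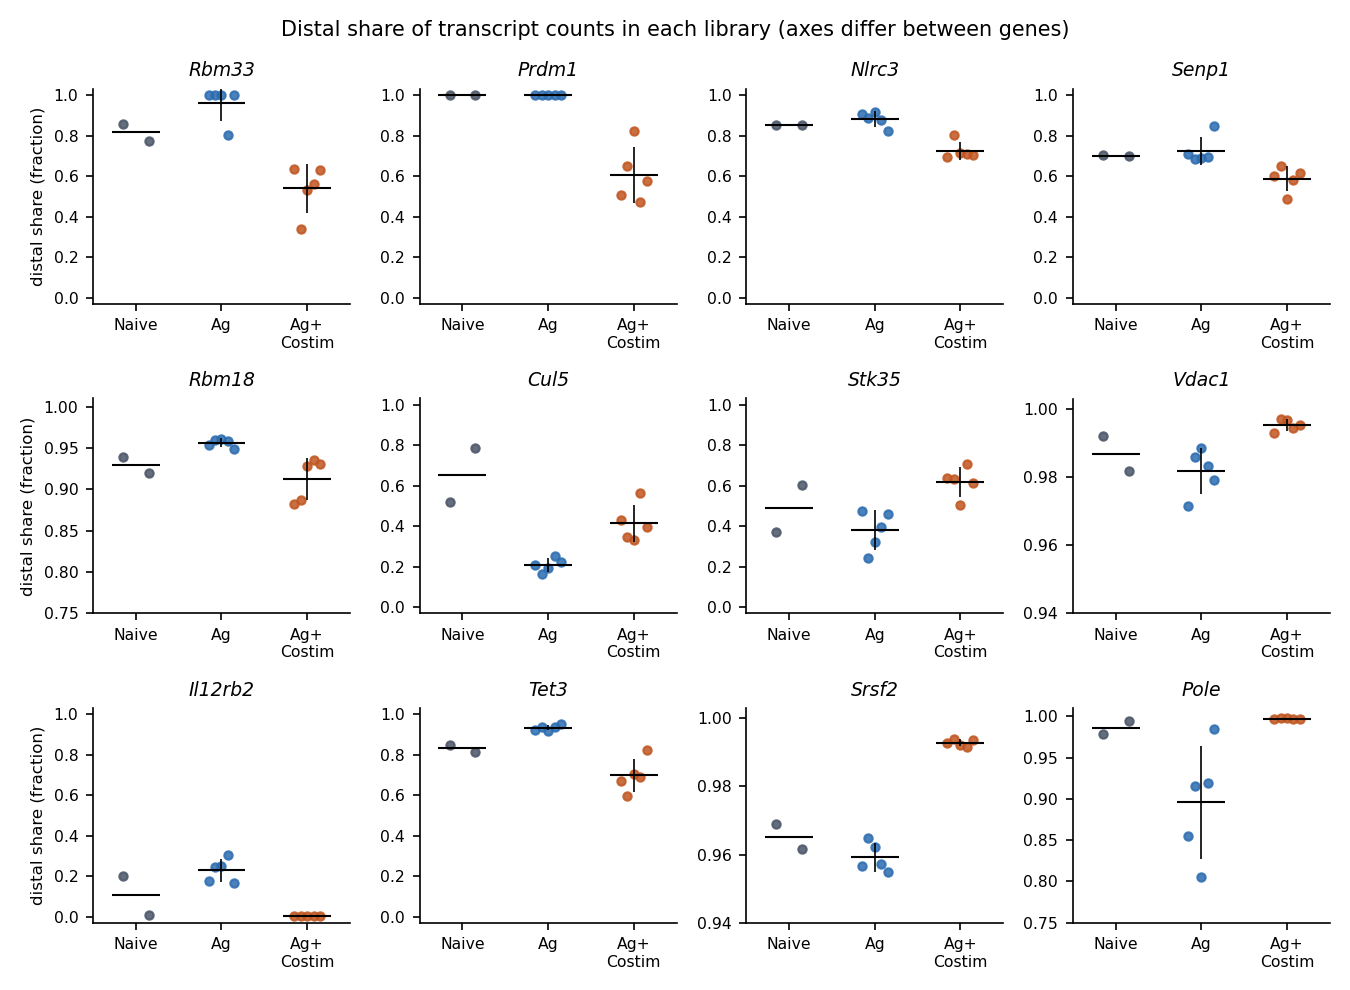
Distal share of transcript counts (fraction, axes differ between genes) in each library (points) of Naive (n = 2), Ag (n = 5) and Ag+Costim (n = 5), with the mean as a line and the SD as a bar for Ag and Ag+Costim. In Rbm33, Prdm1, Nlrc3, Senp1, Rbm18, Il12rb2 and Tet3 the Ag+Costim points lie below all Ag points, and in Cul5, Stk35, Vdac1, Srsf2 and Pole above.

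Several genes with a large Psi difference showed none of this kind in the shares. Actn1 had mean distal shares of 0.991 ± 0.00662 (SD, n = 5) in Ag and 0.996 ± 0.00180 (SD, n = 5) in Ag+Costim. Cdk5 had shares of 0.996 or above in every library. Nfkb1 had 0.847 ± 0.111 and 0.977 ± 0.0262 (SD, n = 5 each), the opposite direction to its Psi, and Eomes 0.814 ± 0.192 and 0.800 ± 0.220. Anp32a had 0.877 ± 0.0482 in Ag and 0.905 ± 0.0574 in Ag+Costim. Brd2 had 0.925 ± 0.147 and 0.996 ± 0.00153 (SD, n = 5 each), and the means of both genes moved opposite to their Psi. In Brd2 this rested mostly on Ag 5 at 0.662, while the other Ag libraries had 0.983 to 0.996. Ppp1cb, Ddx19b and Stx17 had at most 11 proximal counts in any Ag or Ag+Costim library. Their distal counts there were 506 or more. Grb2 had proximal counts only in Ag+Costim 2 (109), Sp1 only in Ag 4 (24) and Rc3h1 only in Ag+Costim 5 (67). Among the Ag and Ag+Costim libraries, Orc2 had them only in Ag 3 (87), Ag+Costim 2 (57) and Ag+Costim 3 (27). Scaf4 had at most 13 proximal counts and Nras at most 98 in any Ag or Ag+Costim library, beside distal counts of 604 or more. Il2rb and Nfatc2 had no share that could be tested. The error of the Psi differences of these genes is unknown.

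Library totals were 24006053 counts in Ag 4 and 40028682 to 49294934 in the other Ag, Ag+Costim and Naive libraries. The CD8+ T cell markers summed to between 10108 and 12819 CPM in Ag, between 5323 and 7305 with costimulation and between 12407 and 13039 in Naive, and Cd4 was at most 2.39. B cell markers summed to 101 to 155 in Ag and 22.0 to 55.4 in Ag+Costim, myeloid markers to 37.9 to 160 and 73.8 to 114, and NK cell markers to 6.28 to 15.3 and 1.16 to 3.17. The part of other cells in the differences between groups was not tested.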

How the data were processed

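RNA-seq libraries of sorted CD8+ T cells (5 Ag, 5 Ag+Costim, 2 Naive) were grouped by their labels. Libraries were made from poly(A) RNA with SMART-Seq v4 and Nextera XT and read as single reads of 100 bases, without molecular identifiers. Reads were aligned to mm10 with HISAT2 2.1.0 and assembled with StringTie 2.1.0, per the submitters' processing notes. The authors deposited count tables per gene and per transcript, which StringTie derives from coverage and which are not normalized. The authors ran Whippet on the reads and deposited, for each node, a Psi fraction per group (Ag and Ag+Costim). The index, and how the replicates were combined, are not given in the sources used here. The same table holds Psi differences and probabilities of the authors' own comparison, which were not used, and neither were the FPKM table and the sequencing sheets.

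Members were found by node type, gene name and strand. Transcripts of GENCODE vM21 (GRCm38, mm10) were given to the node that holds their end, up to 5 bases past the distal node, and those with an incomplete 3′ end were left out. Of the gene names, 93 were not matched to a single gene, 4 of them because they had been turned into dates. Loci without an Ensembl identifier held 0.0508% to 0.121% of counts and were left out. Proximal and distal counts were summed per library and compared with edgeR 4.0.16 (quasi-likelihood, R 4.3.3) by the interaction of end and group, fitted over all 3517 genes with enough counts, two-node or not. DESeq2 1.42.0 and limma 3.58.1 were alternatives. Gene counts were compared with edgeR on TMM-normalized counts. All p-values were adjusted by Benjamini-Hochberg over all genes tested. The script was tested on simulated data. Hexamers were searched in the last 50 bases of complete transcripts.

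The naming of genes started from 3 rules: the 10 largest falls and rises of the distal share among called genes with separated libraries and a Psi difference of 0.1 in the same direction, called genes of the 12 functional lists, and the 3 largest Psi falls and rises among genes not called, all with a mean count of at least 100. The first gave Pole alone, the second Il12rb2, Pole, Srsf2 and Tet3. Most named genes come from other sets, chosen after their values were seen: the 12 called genes, 8 genes with separated libraries and a Psi difference in the same direction, 51 list genes past the Psi size and the 20 largest Psi differences with at least 500 mean counts in both groups. Members, lists and rules were chosen with earlier results of these data known. The labels do not say that replicates came from separate animals, so p-values measure the spread between these libraries. Counts range from 24006053 to 49294934 per library, and no error of Psi is known. Tables were handled in pandas 2.3.3 under Python 3.11.15.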

Additional observations from a re-analysis of the deposited data

Results flagged for a closer look

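Among Pole and the 8 genes whose libraries separated in the direction of their Psi, 18 groups of 5 libraries were examined and 3 held a library far from the other 4, where chance gives about 1 in 20 groups. In Nlrc3, Ag+Costim 2 had a distal share of 0.802, against 0.693 to 0.712 in the other Ag+Costim libraries. In Rbm33, Ag 4 had 0.804, against 1.0 in the other Ag libraries, and Ag 4 is the library with the lowest total count. With the other 4 libraries at exactly 1.0, any lower value would be flagged, so the rate of 1 in 20 does not hold there. In Senp1, Ag 5 had 0.846, against 0.685 to 0.7098. These genes were chosen because their libraries separate the groups with all libraries included.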

How the results depend on the processing

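The number of calls from the transcript counts depended on the tool. DESeq2 called 145 lower and 124 higher for Ag+Costim against Ag, 101 and 101 for Ag against Naive, and 105 and 98 for Ag+Costim against Naive, and limma on log2 ratios, chosen after seeing the data, called 10 and 11, 19 and 16, and 15 and 13. With the replicate block the counts were 2 and 1, 0 and 3, and 0 and 0, and 9 of the 12 genes called for Ag+Costim against Ag lost the call, with adjusted p of 0.0514 to 0.326 by edgeR. The correlations of same-numbered Ag and Ag+Costim libraries were 0.0159 to 0.0951, and 6 of 10 libraries correlated best with their own number. Whether the replicate numbers pair the samples is not known and was not tested. The main fit has no block, so its calls hold only without such a pairing. Protein-coding transcripts alone gave 3 higher for Ag+Costim against Ag, 4 lower and 3 higher for Ag against Naive, and 2 lower for Ag+Costim against Naive. Fits of the 2 groups alone gave 1 and 1 for Ag against Naive and 4 higher for Ag+Costim against Naive. Ends within 5 bases gave 4 lower and no filter 3 higher for Ag against Naive, and the strict filter gave 5 higher for Ag+Costim against Naive. Extensions of at least 100 bases, chosen after seeing the data, left 3 higher, 2 higher and 1 higher in the 3 comparisons. Leaving out single libraries gave 4 to 9 lower and 4 to 8 higher for Ag+Costim against Ag, 2 to 10 and 2 to 7 for Ag against Naive, and 1 to 9 and 1 to 8 for Ag+Costim against Naive. The cause of these differences was not tested. Sema4a was reversed with protein-coding transcripts alone, at a log2 ratio of -5.66.

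The Psi counts had more lower than higher values at each size and depth tried. A size of 0.2 gave 170 lower and 114 higher and a size of 0.05 gave 461 higher, by construction. Extensions of at least 100 bases gave 206 and 115, which is 64.2% lower against 59.6% in all. The share of distal ends with AATAAA was 62.3% in the last 40 bases. Gene counts of the two-node genes gave 815 to 909 lower and 959 to 1044 higher without single libraries, and the block gave 877 and 1025. Of the comparisons of single genes under the alternatives, 44 of the 3′ end tests and 28 of the gene count tests lost the call with the direction kept, 13 of the 3′ end tests gained it, and the reversed test of Sema4a also lost it.

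A single Psi per group leaves its error unknown, and how well reads of 100 bases tell ends a few bases apart was not tested. Ends with 0 counts and the low power shown by simulated data limit the share test.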
